A study of Mus musculus with 16 samples.

Results

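The serpins are a family of protease inhibitors and of proteins that share their fold. The members were the gene rows of the deposited table whose Ensembl identifier has, in the mouse GRCm38 annotation, a protein-coding symbol starting with Serpin. This gave 61 genes of 55487 rows. Clade A held 24 of them, clade B 26, clade E 3, clades F and I 2 each, and clades C, D, G and H 1 each. A further 7 rows with a Serpin symbol, Serpina4-ps1, Serpina3d-ps, Serpina3e-ps, Serpina3h, Serpina3l-ps, Serpinb1-ps1 and Serpinb10, are annotated as pseudogenes and were not counted as members.

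The liver RNA of 16 male C57BL6/J mice was sequenced, each mouse as a separate library, with 4 mice in every group. All mice had been made obese on a 60 kcal% high-fat diet, for 8 weeks from the age of 10 weeks as the sample records state, and both test diets were also high in fat. The groups were vehicle on the standard protein diet (vehicle SP), vehicle on the high protein diet (vehicle HP), G108 on the standard protein diet (G108 SP) and G108 on the high protein diet (G108 HP). G108, a long-acting agonist of the glucagon receptor, was injected under the skin daily at 2.5 nmol/kg for 22 days, and the records place the cull on day 25 after a fast of 4 h. The study asked how extra dietary protein alters the effects of a low dose of G108, and the comparisons here were G108 against vehicle within each diet, HP against SP within each treatment, and the interaction of treatment and diet. The paper and the records differ on age, length of feeding and day of cull.

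A serpin folds with an exposed reactive centre loop. The target protease cuts the loop and is then trapped covalently in an inactive complex. Clade A genes encode secreted proteins, many made by hepatocytes and released into plasma, while clade B serpins lack a classical signal peptide and mostly act inside cells. A few members have lost the inhibitory function and carry hormones or assist folding instead. Mice carry several copies of the genes for α1-antitrypsin (Serpina1) and for antichymotrypsin-like serpins (Serpina3), and most clade A genes lie side by side on chromosome 12.

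Levels are given as scaled TPM, the deposited TPM (transcript abundance per length and library) divided by a median-of-ratios factor for each library, and fold changes are on the log2(scaled TPM + 1) scale, which understates changes of low genes. Calls are at an adjusted p under 0.05 in limma, with Benjamini-Hochberg adjustment over the 11839 genes whose mean TPM reached 1. Depth was 27.8 M to 45 M reads per library, as recovered from the TPM steps. The scaling factors were 0.681 to 0.964 in vehicle SP and 1.17 to 1.54 in G108 SP, without overlap, and 0.833 to 1.07 in vehicle HP against 0.839 to 1.24 in G108 HP. Over all genes the log2 fold change on SP had a median of 0.60 on TPM as deposited and of -0.01 after scaling, so the scaling decides most calls on SP. The 22 Mup genes, which encode major urinary proteins, took 45.3% ± 3.47 of TPM in vehicle SP and 39.5% ± 3.92 in vehicle HP. With G108 they took 20.2% ± 2.46 on SP and 24.1% ± 4.78 on HP. The 37 mitochondrial genome genes took 17.5% ± 4.44 in vehicle SP, 17.7% ± 2.29 in vehicle HP, 18.9% ± 2.39 in G108 SP and 26.7% ± 7.70 in G108 HP (SD, n = 4 each). The part of these genes in the factors was not tested. Vehicle SP mouse 4 stood apart, with the lowest level of the liver's main serpins of all 16 mice. The 7 hepatocyte markers summed to between 19242 and 28972 scaled TPM in every library.

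The results turn mainly on 3 members of the chromosome 12 cluster, and the 250 bases before the start of each are shown for that reason. Serpina12 was the member called in both G108 comparisons. Serpina11 lies near it. In the main fit on the scaled values it was called with G108 only where both diets were averaged, and some other settings called it on single diets. Serpina1c was the member with the highest level. The sequences are from RefSeq (GRCm38.p6), which had a promoter for 52 of the 61 members. They run 5′ to 3′ on the minus strand and come from chr12:104044444-104044693, chr12:103989958-103990207 and chr12:103904951-103905200. Capitals mark motif matches.
Serpina12: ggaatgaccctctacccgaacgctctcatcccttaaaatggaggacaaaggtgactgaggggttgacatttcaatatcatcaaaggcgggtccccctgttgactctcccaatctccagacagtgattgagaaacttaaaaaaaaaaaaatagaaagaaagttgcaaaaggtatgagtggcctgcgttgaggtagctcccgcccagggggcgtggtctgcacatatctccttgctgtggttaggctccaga
Serpina11: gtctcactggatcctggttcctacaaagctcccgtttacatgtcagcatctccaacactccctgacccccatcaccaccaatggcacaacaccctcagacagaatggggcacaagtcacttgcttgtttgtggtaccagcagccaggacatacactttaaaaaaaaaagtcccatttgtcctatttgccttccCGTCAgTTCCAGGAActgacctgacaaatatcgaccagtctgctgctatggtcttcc
Serpina1c: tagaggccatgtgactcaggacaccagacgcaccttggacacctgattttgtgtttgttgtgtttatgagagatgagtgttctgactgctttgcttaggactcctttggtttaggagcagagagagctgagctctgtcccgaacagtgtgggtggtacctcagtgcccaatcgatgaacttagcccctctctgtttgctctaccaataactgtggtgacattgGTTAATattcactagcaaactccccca

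Each window was searched on both strands for 5 motifs: TGACG, a core part of the cAMP response element bound by CREB; TGTTTAC, bound by FOXO and FOXA factors; TTCNNNGAA, bound by STAT factors; GTTAAT, an arm of the palindromic HNF1 site; and CAAAGTCCA, bound by HNF4. Over 32851 mouse promoters of the same length these occurred in 17.8%, 3.17%, 7.02%, 6.43% and 0.384%. The Serpina12 window held none of these letters. The Serpina11 window held CGTCA, the reverse complement of TGACG, at -57 to -53 and TTCCAGGAA at -51 to -43, which do not overlap. GTTAAT occurred once in each of the 5 Serpina1 promoters, from -27 to -22 in Serpina1c, and in 11 of the 52 members with a promoter. The promoters of Serpina1a to Serpina1d were 84.3% to 91% identical to each other and 58% to 64.2% identical to that of Serpina1e. These matches describe the letters in the window and were not tested for binding.

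Of the 61 members, 23 reached a mean TPM of 1 and were tested: 16 of clade A, Serpinb6a of clade B, and Serpinc1, Serpind1, Serpinf1, Serpinf2, Serping1 and Serpinh1. A further 10 had a mean from 0.1 to 1 and 13 had reads but a mean under 0.1. The remaining 15 had no read in any library, 14 of clade B and Serpini2, which allows up to 3 reads per library, or 0.0276 to 0.12 TPM by gene length and depth (counting error only). Among those 15, the share of 31-base sequences that occur in other genes ran from 0% (Serpini2) to 87.3% (Serpinb9f). How shared reads were assigned is not given, so some of these zeros may not mean absent RNA. Every clade A member had reads, against 12 of 26 in clade B. All 976 member values lay within 0.02 of a whole number of reads.

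**Figure D1:**
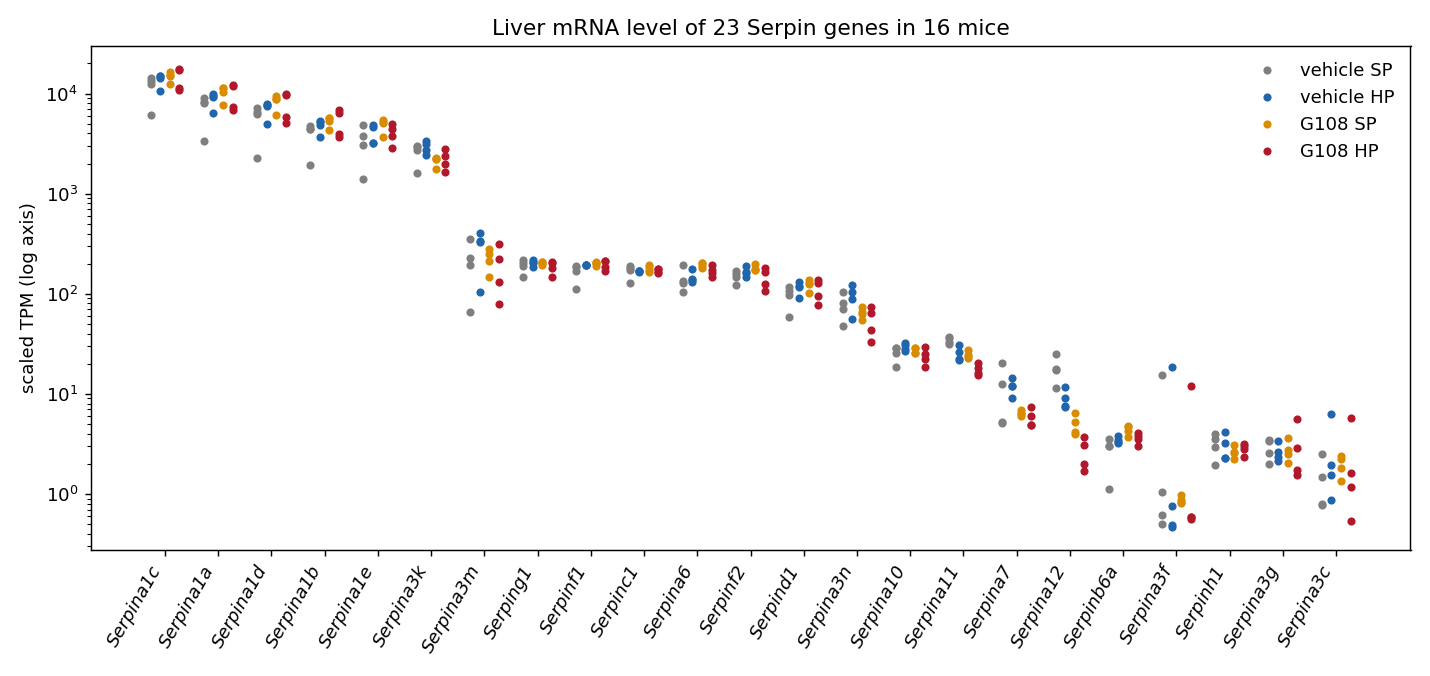
Scaled TPM (log axis) of the 23 serpin genes whose mean TPM reached 1, with a point for each mouse, coloured by group and ordered by mean level. Serpina1a to Serpina1e and Serpina3k lie at 1407 or more in every mouse, and the Serpina12 points step down from vehicle SP to G108 HP.

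Serpin RNA was dominated by clade A. All members together took 2.92% ± 1.23 of deposited TPM in vehicle SP, 3.96% ± 0.931 in vehicle HP, 6.52% ± 1.47 in G108 SP and 4.58% ± 1.88 in G108 HP (SD, n = 4 each). Clade A made up 2.86%, 3.88%, 6.39% and 4.5% of TPM in the same groups. The 37 members outside clade A together reached 0.0391% to 0.139% in single libraries. These shares are of deposited TPM, in which the Mup and mitochondrial genome shares differed between the groups as given above. The serpin shares were not tested.

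Serpina12 was lower with G108 on both diets. Serpina12 (ENSMUSG00000041567, chr12:104028769-104044443, minus strand, 3690 exon bases) encodes vaspin, a secreted serpin known from visceral fat that inhibits kallikrein 7. Its scaled TPM in vehicle SP mice 1 to 4 was 17.5, 24.8, 17.3 and 11.6, and in G108 SP it was 5.27, 4.01, 4.16 and 6.41. In vehicle HP it was 7.57, 7.43, 9.01 and 11.8, and in G108 HP it was 3.08, 3.74, 1.69 and 2.01. Every G108 mouse lay below every vehicle mouse of its diet. The group means were 17.8 ± 5.42 in vehicle SP, 8.96 ± 2.04 in vehicle HP, 4.96 ± 1.11 in G108 SP and 2.63 ± 0.949 in G108 HP (SD, n = 4 each).

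On SP the mean was 3.59-fold lower with G108, with a log2 fold change of -1.63 (SE 0.23) and an adjusted p of 0.00124 in limma. On HP it was 3.4-fold lower, with a log2 fold change of -1.47 (SE 0.23) and an adjusted p of 0.0107 in limma. Serpina12 was the sole member called in either comparison, 1 of 23 on SP where 2.72% of all genes tested were called and 1.39% were called lower, and 1 of 23 on HP where 1.22% were called and 0.583% were called lower. The drop on SP and the drop on HP differed by 0.16 (SE 0.32) on the log2 scale, with an adjusted p of 0.820 for the interaction in limma.

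On TPM as deposited Serpina12 remained called, at -0.95 (adjusted p 0.00692 in limma) on SP and -1.36 (adjusted p 0.0254) on HP. On that scale the SP groups overlapped by a pair of mice: vehicle SP mouse 4 had 7.89 TPM and G108 SP mouse 4 had 9.39. Leaving out each library in turn kept the call on both diets, at -1.81 to -1.46 on SP and -1.61 to -1.34 on HP. The values rest on 153 to 2258 reads per library, and no 31-base sequence of its exons occurs in another gene.

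**Figure D2:**
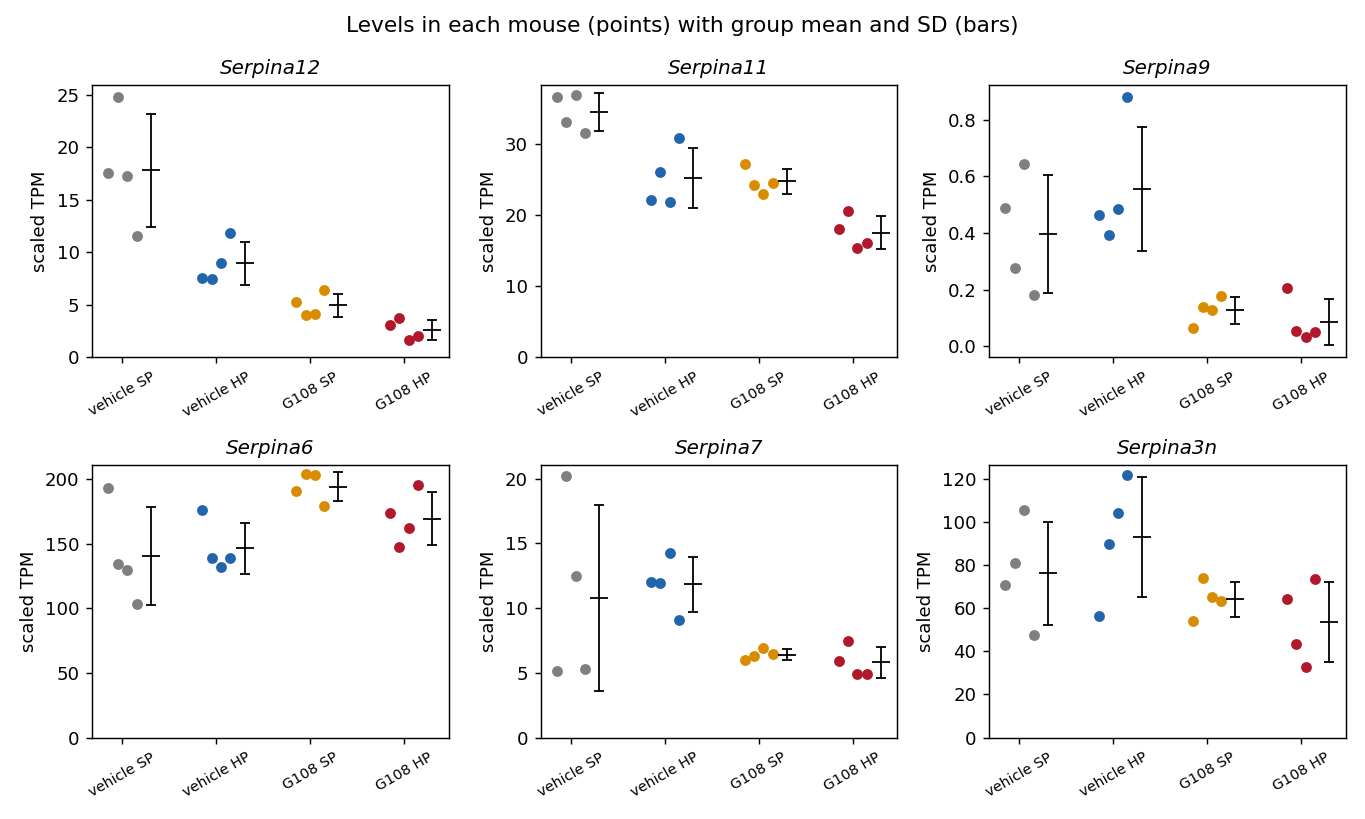
Scaled TPM in each mouse (points) with the group mean and SD (bars, n = 4 mice) for Serpina12, Serpina11, Serpina9, Serpina6, Serpina7 and Serpina3n, each on its own axis from near 0. For both Serpina12 and Serpina11, vehicle SP is the highest group and G108 HP the lowest, and neither has an overlap between G108 and vehicle on either diet.

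The 5 adipocyte markers, a possible source of vaspin RNA, summed to 0.15 to 1.23 scaled TPM in vehicle SP and 0 to 0.0473 in G108 SP, without overlap, and to 0.0614 to 0.667 in vehicle HP against 0 to 0.426 in G108 HP. Of the 5, Lep alone was at 0 in every library. Their part in the Serpina12 result was not tested. In whole liver, fewer cells of a type and less RNA per cell cannot be told apart.

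Serpina12 was also lower on HP than on SP, but not past the threshold. With G108 the log2 difference was -0.73 (SE 0.23, adjusted p 0.804 in limma), and the HP and SP mice did not overlap. With vehicle it was -0.89 (SE 0.23, adjusted p 0.792 in limma), and vehicle HP mouse 4, at 11.8, lay above vehicle SP mouse 4, at 11.6. Averaged over both treatments, a contrast added after the data were seen, the difference was -0.81 (SE 0.16, adjusted p 0.341 in limma). No gene of 11839 was called in any of these diet contrasts, so 0.0% of all genes stands behind the absence of a member called. At an unadjusted p under 0.05 there were 3 members with G108, where 5.4% of all genes passed, and 2 with vehicle, where 3.94% did. Voom on the recovered reads called no member either, and array quality weights called Serpina11 with G108. Those weights called 297 of all genes in that contrast, where the main fit called 0. The Serpina12 level fell from vehicle SP through vehicle HP and G108 SP to G108 HP. Of the neighbours in that order, vehicle HP and G108 SP did not overlap (7.43 at the lowest and 6.41 at the highest), but they differ in both factors and were not compared by a test.

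Serpina11 also had its highest levels in vehicle SP and its lowest in G108 HP, with vehicle HP and G108 SP overlapping in between. It lies 38811 bases from Serpina12, at chr12:103980243-103989957 on the minus strand, and encodes a secreted clade A serpin. Its scaled TPM was 36.5, 33, 36.9 and 31.5 in vehicle SP and 27.2, 24.1, 22.9 and 24.5 in G108 SP. In vehicle HP it was 22.1, 25.9, 21.8 and 30.7, and in G108 HP it was 18, 20.5, 15.3 and 16. The groups did not overlap in any of the 4 comparisons of 2 groups.

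The log2 fold change with G108 was -0.46 (SE 0.12, adjusted p 0.0515 in limma) on SP and -0.50 (SE 0.12, adjusted p 0.0610 in limma) on HP. HP against SP gave -0.48 (SE 0.12, adjusted p 0.716) with G108 and -0.45 (SE 0.12, adjusted p 0.832) with vehicle in limma. None of the 4 passed. Averaged over the diets, the G108 difference was -0.48 (SE 0.08) and passed at an adjusted p of 0.00282 in limma, as did that of Serpina12 at -1.55 (SE 0.16, adjusted p 6.38e-05). These were the 2 members called of 23 in that contrast, where 5.81% of all genes were called and 2.95% were called lower. On TPM as deposited the averaged difference of Serpina11 was -0.045 (adjusted p 0.752 in limma) and that of Serpina12 was -1.15 (adjusted p 0.000645).

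For Serpina11 the call of the averaged difference and the sign on SP depend on the scaling. On TPM as deposited the SP value was 0.29 (adjusted p 0.150 in limma). Serpina11 passed on SP without vehicle HP mouse 4 (adjusted p 0.0291), without G108 SP mouse 1 (adjusted p 0.0408) or without G108 HP mouse 2 (adjusted p 0.0460), and on HP without vehicle SP mouse 4 (adjusted p 0.0455), all in limma. On SP it also passed with a minimum mean TPM of 5 (adjusted p 0.0395), with array quality weights (adjusted p 0.00323) and with voom (adjusted p 0.0493), and on HP with array quality weights (adjusted p 0.0136). The weights called 1821 of all genes on SP and 795 on HP, against 322 and 145 in the main fit. The transcript Gm28577 covers 40.8% of the Serpina11 exon bases on the same strand, so reads of the pair cannot be fully told apart.

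Serpina9, which encodes centerin, a serpin known from germinal centre B cells, lies between Serpina11 and Serpina12 on the same strand. It was low, with a mean scaled TPM of 0.397 ± 0.207 in vehicle SP, 0.555 ± 0.219 in vehicle HP, 0.128 ± 0.0474 in G108 SP and 0.0865 ± 0.0813 in G108 HP (SD, n = 4 each). Every G108 mouse lay below every vehicle mouse of its diet, but on SP narrowly, at 0.178 for the highest G108 mouse and 0.182 for the lowest vehicle mouse. On TPM as deposited the SP groups overlapped. The values rest on 3 to 75 reads per library. In a fit of all 32076 genes with any read, where 0.726% were called on SP and 0.134% on HP, the log2 fold change was -0.30 (SE 0.11, adjusted p 0.306 in limma) on SP and -0.51 (SE 0.11, adjusted p 0.0801 in limma) on HP. The 7 lymphocyte markers summed to 1.87 to 4.47 in vehicle SP and 1.2 to 2.13 in G108 SP, and to 1.53 to 2.09 in vehicle HP and 1.39 to 5.56 in G108 HP, overlapping on both diets.

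The pseudogene Serpina4-ps1, 36205 bases from Serpina12 on its other side and on the opposite strand, averaged 155 ± 36.5 scaled TPM in vehicle SP, 75.9 ± 34.4 in vehicle HP, 9.08 ± 6.98 in G108 SP and 5.56 ± 3.61 in G108 HP. Its log2 fold change with G108 was -4.20 (SE 0.54, adjusted p 0.000716 in limma) on SP and -3.72 (SE 0.54, adjusted p 0.00929 in limma) on HP.

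**Figure D3:**
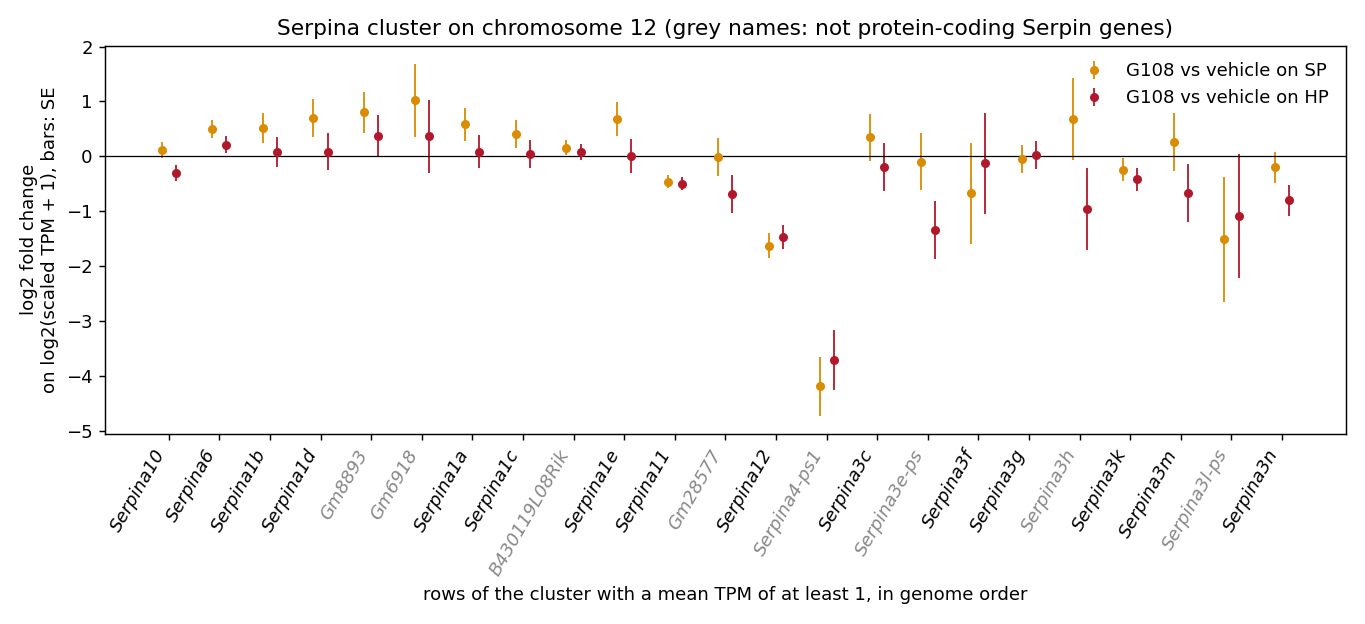
Log2 fold change (points) and SE (bars) on the log2(scaled TPM + 1) scale for the 23 rows of the chromosome 12 cluster whose mean TPM reached 1, in genome order, for G108 against vehicle on each diet. Serpina12 and Serpina4-ps1 are the rows furthest below 0 on both diets, while Serpina10, Serpina6 and the Serpina1 genes lie near or above 0 on SP. Grey names are not protein-coding Serpin genes.

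The cluster spans 800 kb and holds 42 rows of the table, 23 of them protein-coding Serpin genes. Of its protein-coding Serpin genes, Serpina12 was the one called. On one side of Serpina11 lie Serpina10, Serpina6 and the Serpina1 genes, with log2 fold changes of 0.11 to 0.70 on SP. Beyond Serpina4-ps1 lie the protein-coding Serpina3 genes, of which those tested gave -0.68 to 0.34 on SP. None of these was called on either diet, where 2.72% of all genes were called on SP and 1.22% on HP.

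The Serpina1 genes encode α1-antitrypsin, the main plasma inhibitor of neutrophil elastase. They were the 5 members with the highest levels. Serpina1c (chr12:103894926-103904887, minus strand) had 13260, 12569, 14332 and 6165 scaled TPM in vehicle SP and 12410, 15370, 14840 and 16294 in G108 SP. In vehicle HP it had 10502, 14816, 14408 and 14949, and in G108 HP it had 17669, 11376, 10737 and 17124. Vehicle SP mouse 4 was the lowest and the groups overlapped on both diets.

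Summed over Serpina1a to Serpina1e, the level was 31495 ± 11084 in vehicle SP, 38259 ± 6462 in vehicle HP, 43426 ± 6222 in G108 SP and 40628 ± 11530 in G108 HP (SD, n = 4 each). Vehicle SP mouse 4 had 15130, and the other vehicle SP mice had 34351 to 39065. The summed log2 fold change with G108 was 0.54 (SE 0.29, adjusted p 0.329 in limma) on SP and 0.06 (SE 0.29, adjusted p 0.968 in limma) on HP. The single genes ranged from 0.41 (Serpina1c) to 0.70 (Serpina1d) on SP and from 0.01 (Serpina1e) to 0.09 on HP. None passed. Without vehicle SP mouse 4 the SP values were 0.13 to 0.32. On TPM as deposited all 5 were called higher on SP, at 1.19 to 1.48, where 77.0% of all genes were called higher.

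Of the summed Serpina1 level, Serpina1c made up 32.7% to 40.7% over the 16 mice, Serpina1a 22.1% to 25.3%, Serpina1d 14.9% to 19.8%, Serpina1b 11.6% to 13.7% and Serpina1e 8.04% to 13%. The genes share sequence: 44.7% (Serpina1b) to 85.8% (Serpina1c) of their 31-base sequences occur in other genes, so the split between them depends on how shared reads were assigned, which is not given in the sources used here. The antisense transcript B430119L08Rik covers 31.5% of the Serpina1c exon bases and had a mean of 3772 TPM, and the pseudogene Gm8893 among them had a mean of 3845 TPM. The use of strand in counting is not given either.

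The hormone carriers of the family are Serpina6, which encodes corticosteroid-binding globulin, and Serpina7, which encodes thyroxine-binding globulin. Serpina6 had 193, 134, 130 and 104 scaled TPM in vehicle SP and 191, 204, 203 and 179 in G108 SP. In vehicle HP it had 176, 139, 132 and 139, and in G108 HP it had 173, 147, 162 and 195. All G108 SP mice lay above all vehicle SP mice except vehicle SP mouse 1. The log2 fold change was 0.50 (SE 0.16, adjusted p 0.123 in limma) on SP and 0.21 (SE 0.16, adjusted p 0.712 in limma) on HP. Without vehicle SP mouse 1 the SP value was 0.67 (adjusted p 0.0134 in limma), and with array quality weights 0.47 (adjusted p 0.0109), both past the threshold. Calls over all genes on SP were 416 without that mouse and 1821 with those weights, against 322 in the main fit.

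Serpina7 lies on chromosome X. It had 5.17, 20.2, 12.5 and 5.29 scaled TPM in vehicle SP and 5.97, 6.29, 6.93 and 6.46 in G108 SP. In vehicle HP it had 12, 12, 14.3 and 9.1, and in G108 HP it had 5.95, 7.44, 4.93 and 4.9. The HP groups did not overlap, while vehicle SP split into a high and a low pair of mice. The log2 fold change was -0.47 (SE 0.31, adjusted p 0.423 in limma) on SP and -0.92 (SE 0.31, adjusted p 0.213 in limma) on HP. Without vehicle SP mouse 2 the SP value was -0.12, and without vehicle SP mouse 1 it was -0.71. With array quality weights both diets passed, at -0.98 (adjusted p 0.0219) and -0.97 (adjusted p 0.0330). Those weights called 1821 of all genes on SP and 795 on HP, against 322 and 145 in the main fit.

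The Serpina3 genes are the mouse counterparts of the human gene for α1-antichymotrypsin, and several respond to inflammation. Serpina3k, an abundant plasma inhibitor of mouse liver, averaged 2568 ± 645 in vehicle SP, 2906 ± 399 in vehicle HP, 2114 ± 245 in G108 SP and 2197 ± 493 in G108 HP (SD, n = 4 each). Its log2 fold change was -0.25 (SE 0.21) on SP and -0.42 (SE 0.21) on HP, with adjusted p of 0.521 and 0.473 in limma. With array quality weights the SP value was -0.48 and passed (adjusted p 0.0402), where 1821 of all genes were called against 322 in the main fit. Serpina3n, an acute phase serpin, had 56.4, 89.6, 104 and 122 in vehicle HP and 64.1, 43.5, 32.9 and 73.7 in G108 HP. Its log2 fold change was -0.80 (SE 0.28, adjusted p 0.248 in limma) on HP and -0.20 (SE 0.28, adjusted p 0.712 in limma) on SP. With array quality weights the HP value was -0.70 and passed (adjusted p 0.0272), where 795 of all genes were called against 145 in the main fit. Serpina3m ranged from 66 to 405 over the 16 mice, a wide spread within each group, and Serpina3g from 1.54 to 5.66.

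Serpina3f, Serpina3i and Serpina3j, which lie in this order among the Serpina3 genes, were high in single mice of several groups. Serpina3f had 15.4 scaled TPM in vehicle SP mouse 2, 18.4 in vehicle HP mouse 3 and 12.1 in G108 HP mouse 3, and 0.47 to 1.05 in the other 13 mice. Serpina3i had 5.23 in vehicle SP mouse 3 and 3.97 in vehicle HP mouse 3, and Serpina3j had 4.33 in vehicle SP mouse 2 and 5.04 in vehicle HP mouse 3. Vehicle HP mouse 3 was high for all of them, vehicle SP mouse 2 for Serpina3f and Serpina3j, and G108 HP mouse 3 for Serpina3f. The high values of Serpina3f occurred with vehicle and with G108 and on both diets. Those of Serpina3i and Serpina3j were in vehicle mice, and with G108 their highest values were 1.32 and 1.21, both on SP. The log2 fold changes of Serpina3f, -0.68 (SE 0.92) on SP and -0.13 (SE 0.92) on HP, were not called in limma.

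**Figure D4:**
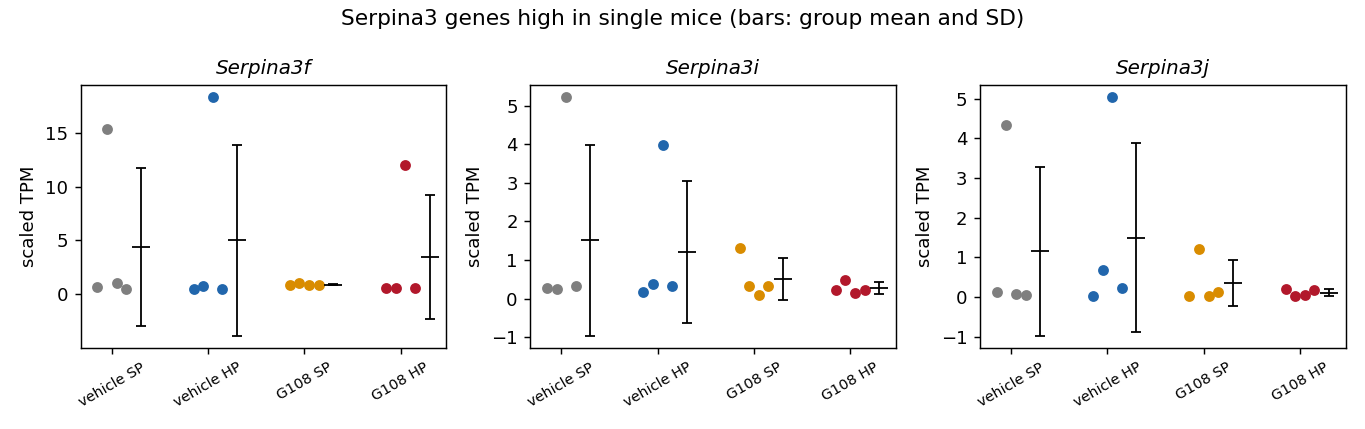
Scaled TPM of Serpina3f, Serpina3i and Serpina3j in each mouse (points) with the group mean and SD (bars, n = 4 mice). Single mice reach 12.1 to 18.4 for Serpina3f while the others stay at 1.05 or less, and the SD bars run below 0 in the groups where 1 mouse sets the mean.

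No plasma regulator of clotting, fibrinolysis or complement was called on either diet, where 2.72% of all genes were called on SP and 1.22% on HP. At these shares so small a set can hold no call without differing from all genes. Serpinc1, which encodes antithrombin, had 188, 179, 171 and 129 scaled TPM in vehicle SP, 167, 168, 167 and 166 in vehicle HP, 192, 183, 174 and 164 in G108 SP and 177, 166, 162 and 176 in G108 HP. All mice but vehicle SP mouse 4 lay between 162 and 192. Its log2 fold change was 0.11 (SE 0.11) on SP and 0.02 (SE 0.11) on HP, with adjusted p of 0.593 and 0.964 in limma. Zbtb37, on the opposite strand, overlaps 34.4% of the Serpinc1 exon bases. Serpind1, which encodes the thrombin inhibitor heparin cofactor II, averaged 95.1 ± 25.2 in vehicle SP, 115 ± 17.6 in vehicle HP, 123 ± 14.8 in G108 SP and 109 ± 28.1 in G108 HP. Serpina10, whose product inhibits factor Xa with protein Z, gave 0.11 (SE 0.15) on SP and -0.31 (SE 0.15) on HP. Serping1, which encodes C1 inhibitor, gave 0.13 (SE 0.13) and -0.14 (SE 0.13).

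Serpinf2, which encodes the plasmin inhibitor α2-antiplasmin, had 158, 148, 168 and 121 in vehicle SP and 174, 198, 178 and 175 in G108 SP, without overlap. In vehicle HP it had 148, 161, 167 and 188 and in G108 HP it had 166, 125, 107.8 and 182, with overlap. The log2 fold change was 0.29 (SE 0.15, adjusted p 0.333 in limma) on SP and -0.22 (SE 0.15, adjusted p 0.689 in limma) on HP. Serpinf1, which encodes pigment epithelium-derived factor and is not an inhibitor, gave 0.32 (SE 0.15, adjusted p 0.274 in limma) on SP without overlap and 0.00 (SE 0.15) on HP. Without vehicle SP mouse 4 the SP value was 0.14 for Serpinf1 and 0.20 for Serpinf2. Serpinh1, which encodes the collagen chaperone Hsp47 of the endoplasmic reticulum, averaged 2.63 to 3.11 in the 4 groups.

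Serpinb6a, an intracellular serpin, was the clade B member with a mean TPM above 1. It had 2.99, 3.05, 3.54 and 1.12 scaled TPM in vehicle SP, 3.22, 3.44, 3.33 and 3.76 in vehicle HP, 3.73, 4.29, 4.74 and 4.64 in G108 SP and 3.79, 3.55, 3 and 4.1 in G108 HP. The SP groups did not overlap and the HP groups did. Its log2 fold change was 0.60 (SE 0.18, adjusted p 0.10 in limma) on SP and 0.05 (SE 0.18, adjusted p 0.952 in limma) on HP. Without vehicle SP mouse 4 the SP value was 0.35 (adjusted p 0.0860 in limma). It passed with array quality weights on SP, at 0.45 (adjusted p 0.00298 in limma), where 1821 of all genes were called against 322 in the main fit. Nqo2 and Ripk1, on the opposite strand, overlap 14.1% and 4.46% of its exon bases.

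Members below the filter included Serpinb9, which encodes an inhibitor of granzyme B, Serpinb1a, an inhibitor of neutrophil elastase, Serpinb6b, Serpinb8 and Serpine2, which encodes protease nexin 1. Serpinb1a averaged 0.992 ± 0.584 in vehicle SP, 0.936 ± 0.342 in vehicle HP, 0.424 ± 0.0858 in G108 SP and 0.493 ± 0.129 in G108 HP (SD, n = 4 each). Serpinb6b averaged 0.425 ± 0.147 in vehicle SP and 0.166 ± 0.0709 in G108 SP. None of the 23 members below the filter that had reads was called on SP or HP in the fit of all genes with reads. Over all genes of that fit 0.726% were called on SP and 0.134% on HP. Among these members Serpina9 on HP had the smallest adjusted p in limma.

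**Figure D5:**
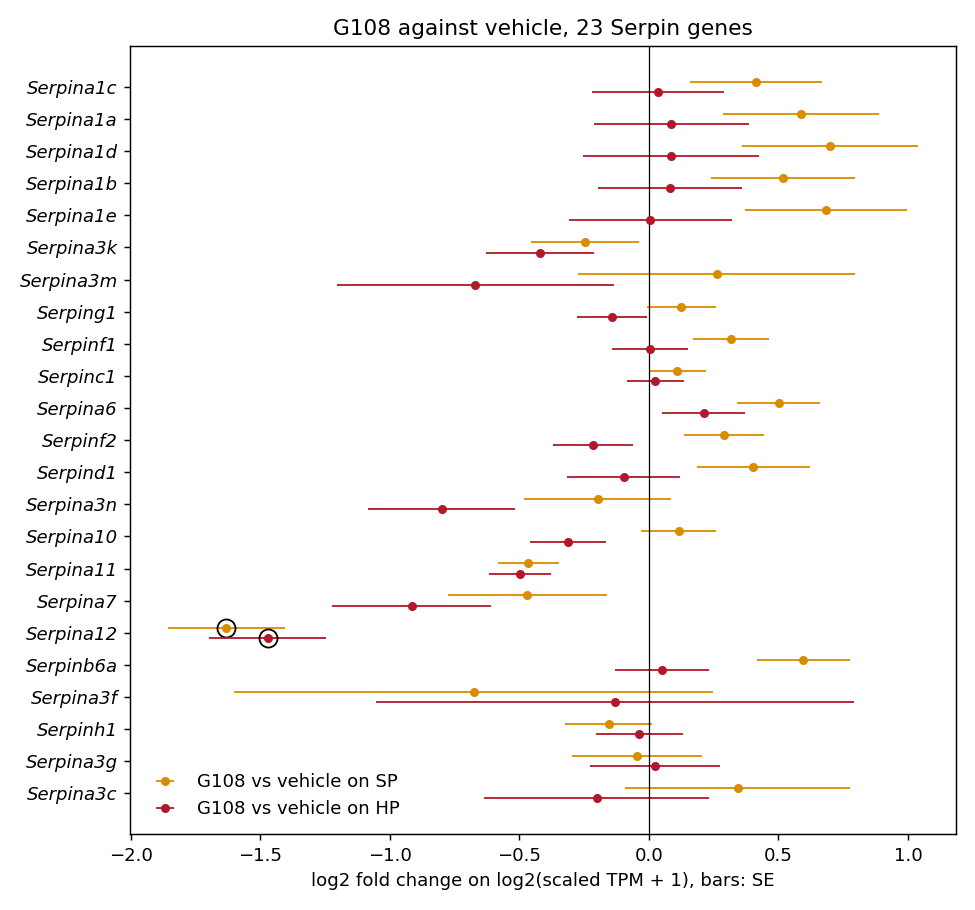
Log2 fold change (points) and SE (bars) on the log2(scaled TPM + 1) scale for G108 against vehicle on either diet in the 23 serpin genes tested, ordered by mean level. Circles mark the 2 values with an adjusted p under 0.05, both of Serpina12, at -1.63 and -1.47.

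The 23 members tested had a median log2 fold change with G108 of 0.26 on SP, against -0.01 over all genes, and of -0.10 on HP, against 0.00. On SP 15 of 23 were above 0, against 48.7% of all genes, and on HP 10 of 23, against 49.2%. These counts treat the Serpina1 genes, which share sequence, as separate members. The SP values also lean on vehicle SP mouse 4. Without it the Serpina1 genes gave 0.13 to 0.32. Serpina10, Serpina3m and Serpinc1 turned below 0, at -0.022, -0.21 and -0.0085, and Serpina3g turned above 0, at 0.031. The groups did not overlap for 5 members on SP, Serpinb6a, Serpinf1 and Serpinf2 higher and Serpina11 and Serpina12 lower, against 9.21% of all genes, and for 3 on HP, Serpina7, Serpina11 and Serpina12, all lower, against 8.15%. For HP against SP, 2 members did not overlap with G108, Serpina11 and Serpina12, both lower, against 4.27% of all genes, and 2 with vehicle, Serpina11 lower and Serpinf1 higher, against 2.01%.

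No member was called for the interaction of G108 and diet in limma, nor was any other gene tested (0.0%). At an unadjusted p under 0.05 there were 2 members, Serpinf2 at -0.51 (SE 0.22) and Serpinb6a at -0.55 (SE 0.26), where 7.21% of all genes passed. Vehicle SP mouse 4 enters both: without it their log2 fold changes with G108 on SP were smaller, at 0.20 and 0.35 in that order. The 8 other settings called no member either. The interaction was above 0 for 4 of 23 members, against 50.7% of all genes. This count was not tested. It includes vehicle SP mouse 4, and the members are not independent of each other, since the Serpina1 genes share sequence. On TPM as deposited 16 of 23 members were called on SP, 15 higher and Serpina12 lower, where 77.6% of all genes were called, and 1 of 23 on HP, Serpina12, where 1.11% were.

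Genes that act beside the serpins were taken in lists, where 2.72% of all genes tested were called on SP and 1.22% on HP. Of 21 target proteases of serpins, 16 were tested and none was called in any contrast. Of 21 other secreted protease inhibitors, 17 were tested and Itih2, a heavy chain of the inter-α-trypsin inhibitor, was higher on SP, at 245 ± 14.8 with G108 and 150 ± 50.8 with vehicle and a log2 fold change of 0.77 (SE 0.19, adjusted p 0.0494 in limma). None of the 12 hepatocyte transcription factors, the 13 genes for folding and export of secreted proteins or the 8 tested of 12 collagens and collagen-processing genes was called. At these shares, lists of such sizes can hold no call without differing from all genes.

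Of 19 acute phase proteins, 17 were tested and 4 were lower with G108 on SP, where 1.39% of all genes were called lower, while none was called on HP, where 0.583% were. Orm3, Orm1 and Orm2, which encode orosomucoids, gave -2.06 (SE 0.38), -0.92 (SE 0.19) and -0.93 (SE 0.21), and Saa4, a constitutive serum amyloid A, gave -0.72 (SE 0.15). The adjusted p in limma were 0.00889, 0.0159, 0.0264 and 0.0152 in that order. On TPM as deposited 8 of the list were called higher and 1 lower on SP, where 77.0% of all genes were called higher. The list's median log2 fold change on SP was -0.16.

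Markers of other cells were also summed. Kupffer cell markers summed to 32.2 to 97.9 scaled TPM, stellate cell markers to 13.8 to 19.5, neutrophil markers to 0.103 to 2.15 and exocrine pancreas markers to 0.421 to 1.62 over the 16 mice. Blood cell markers ran from 843 to 3094 in vehicle SP and 656 to 919 in G108 SP, with overlap. Endothelial cell markers ran from 34.1 to 46.1 in vehicle SP and 28.5 to 31.1 in G108 SP, without overlap, and hepatocyte markers from 22336 to 25914 in vehicle HP and 19242 to 22166 in G108 HP, without overlap. None of the marker genes that were tested was called in any contrast, where 2.72% of all genes were called on SP and 1.22% on HP. Their part in the serpin values was not tested.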

How the data were processed

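The authors checked reads with FastQC 0.11.8, aligned them to GRCm38 with HISAT2 2.0.5, counted reads per gene with featureCounts and deposited TPM, computed from read counts and exon lengths; the 16 columns of this table were all used. The handling of strand and of reads matching several genes is not given in the sources used here. Gene symbols and positions were taken from the GRCm38 annotation. TPM sum to 1 total in every library, so a lower share of the Mup genes raises other values, and a higher share of mitochondrial genome genes lowers them. TPM were therefore divided by median-of-ratios factors from 11591 genes, the scaling that DESeq2 1.36.0, used by the authors on counts, applies. Reads per library were recovered from the TPM steps of genes with at most 10 reads, of which 98.9% lay within 0.02 of a whole read, and limit precision by counting error.

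log2(scaled TPM + 1) was compared in limma 3.58.1 (R 4.3.3) with 1 mean per group, a mean-variance trend and all 16 libraries, over genes whose mean TPM reached 1, after a test on simulated data. Within-group r was 0.925 to 0.990, and each mouse is 1 replicate. Alternatives were TPM as deposited, TPM without Mup and mitochondrial genes, a pseudocount of 0.1, no filter, a mean TPM of at least 5, only the groups compared, a replicate block, array quality weights, voom on recovered reads, the Serpina1 genes summed and each library left out; contrasts averaged over the other factor were added after the data were seen. Members with values per mouse were those called, the 5 with the highest level and others chosen after their values were seen. The members and the gene lists were chosen with earlier results of these data known.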

Additional observations from a re-analysis of the deposited data

Results flagged for a closer look

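Of 72 groups of 4 mice, for the 18 members given per mouse, 14 had a mouse whose gap to the nearest of the others was too large a part of the group's range by Dixon's test at 95%; chance flags about 1 in 20 such groups. Many of these members, Serpina3f, Serpina3i and Serpina3j among them, were chosen after their values were seen, so the number cannot be set against that rate. Of these, 8 were high values of neighbouring Serpina3 genes. Serpina3f had 15.4 scaled TPM in vehicle SP mouse 2, 18.4 in vehicle HP mouse 3 and 12.1 in G108 HP mouse 3, against at most 1.05, 0.754 and 0.594 in the other mice of each group. Serpina3i had 5.23 in vehicle SP mouse 3 and 3.97 in vehicle HP mouse 3, against at most 0.318 and 0.382. Serpina3j had 4.33 in vehicle SP mouse 2, 5.04 in vehicle HP mouse 3 and 1.21 in G108 SP mouse 2, against at most 0.126, 0.683 and 0.119.

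Low values stood apart in 5 groups. Vehicle SP mouse 4 had 1946 for Serpina1b, where the others had 4418 to 4726, and 1612 for Serpina3k, where they had 2748 to 2968. Vehicle HP mouse 1 had 10502 for Serpina1c, where the others had 14408 to 14949, and 4931 for Serpina1d, where they had 7527 to 7953. G108 SP mouse 3 had 1746 for Serpina3k, where the others had 2221 to 2255. Serpina9 was high in G108 HP mouse 1, at 0.208 against 0.0333 to 0.055.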

How the results depend on the processing

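Serpina12 kept its direction and its call on both diets under all 9 other settings, from -1.97 to -0.95 on SP and -1.81 to -1.36 on HP, and without each of the 16 libraries in turn, where the largest adjusted p in limma was 0.0071 on SP and 0.047 on HP. The count of members called with G108 on SP, 1, became 16 on TPM as deposited, 2 with a mean TPM of 5 or more, 6 with array quality weights, 2 with voom and 1 to 2 without single libraries. Over all genes, 322 became 9185, 219, 1821, 350 and 158 to 471 in the same order. On HP, 1 became 4 with array quality weights and 1 to 2 without single libraries, while 145 over all genes became 795 and 17 to 210. For HP against SP with G108, 0 became 1 with array quality weights (Serpina11), while 0 over all genes became 297. Averaged over diets, 2 became 13 on TPM as deposited, 12 of them higher where 61.0% of all genes were called higher; Serpina11, called at -0.48, was -0.045 there (adjusted p 0.752 in limma) and lost its call. Among the log2 fold changes of members, 18 changed sign under at least 1 other setting, 9 on SP and 9 on HP, and none of them was called in the main test.

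On TPM as deposited the SP values turned to 0.29 (Serpina11), 0.52 (Serpina3g), 0.53 (Serpina3k), 0.57 (Serpina3n), 0.20 (Serpina7) and 0.41 (Serpinh1), of which Serpina3g and Serpinh1 passed, and the HP values to 0.028 (Serpind1) and 0.058 (Serpinh1). With Mup and mitochondrial genes left out the HP values turned to -0.044 (Serpina1c), -0.074 (Serpina1e), -0.037 (Serpina3g), -0.0089 (Serpinb6a), -0.054 (Serpinc1) and -0.075 (Serpinf1). With array quality weights the SP values turned to -0.0024 (Serpina10), -0.036 (Serpina3m) and -0.022 (Serpinc1), and the HP values to 0.64 (Serpina3c), -0.19 (Serpina3g), 0.033 (Serpind1) and 0.048 (Serpinh1). Serpina3g on HP was -0.0037 with a pseudocount of 0.1 and -0.028 with voom. The cause was not tested.

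Without single libraries, signs turned for Serpina1a (-0.059 to 0.23), Serpina1b (-0.072 to 0.23), Serpina1c (-0.087 to 0.16), Serpina1d (-0.076 to 0.26), Serpina1e (-0.11 to 0.16), Serpina3c (-0.63 to 0.20), Serpina3f (-0.89 to 0.78), Serpina3g (-0.26 to 0.20), Serpind1 (-0.22 to 0.055), Serpinf1 (-0.044 to 0.074) and Serpinh1 (-0.12 to 0.096) on HP. On SP they turned for Serpina10 (-0.022 to 0.18), Serpina3f (-1.01 to 0.14), Serpina3g (-0.16 to 0.049), Serpina3m (-0.21 to 0.59) and Serpinc1 (-0.0085 to 0.17).

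Mouse numbers shared between groups did not pair the mice: over 24 same-numbered pairs r ran from -0.567 to 0.529, 8 were above 0.1, and 4 of 16 mice correlated best with their own number. With the replicate block, Serpina12 was -1.63 (adjusted p 0.00722 in limma) on SP and -1.47 (adjusted p 0.0452) on HP, and 1, 1, 0, 0 and 0 members were called in the 5 contrasts. Over all genes, 322 calls on SP became 9185 on TPM as deposited, 1821 with array quality weights, 103 with the groups compared alone, 213 with the block and 158 to 471 without single libraries. On HP, 145 became 795 with array quality weights, 77 with a mean TPM of 5 or more, 52 with the groups compared alone, 43 without a filter, 35 with the block and 17 to 210 without single libraries. For HP against SP with G108, 0 became 297 with array quality weights. On SP, 158 genes were higher and 164 lower, and 9113 and 72 on TPM as deposited. Depth limits the 15 members without reads and the 23 below the filter that had reads, and sequence shared with other genes also limits some of them.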
